A study of Mus musculus with 12 samples.

Results

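The comparison described here is that of diabetic mouse kidney labelled GABP-KD with diabetic mouse kidney given vehicle. It covers 11747 nuclear genes, those of the 21886 nuclear genes in the deposited table (21899 genes in all) with an FPKM of at least 0.3 in 3 or more of the 6 libraries of the 2 groups. FPKM are sequenced fragments scaled to exon length and to all fragments of the library, so levels can be compared between genes, while libraries need a further scaling given below. Of the members, 9617 reached 0.3 in all 6 libraries and 11727 are protein coding. The minimum kept 60 genes that reached it in the 3 GABP-KD libraries and no vehicle library, and 11 with the opposite pattern, while 10139 nuclear genes did not pass. Cip2a lay just inside, where its FPKM, at the rank that decides, was 0.300025, and Slc4a7 just outside, at 0.299763.

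Both groups were db/db mice, in which the leptin receptor does not work, so that they grow obese and diabetic. The db/db-veh group received vehicle, and in the db/db-GABP-KD group GABP was to be lowered. How this was done, in which cells and at what age are points on which the sources used here are silent. The series also holds lean heterozygous db/m mice with vehicle (db/m-veh) and db/m mice in which GABP was to be raised (db/m-GABP-OE), and each of the 4 groups has 3 poly(A) RNA libraries. Each group had 6 mice and each extraction mixed 3 tissues, so 3 pools of 3 would have to share animals, and whether the libraries are separate pools is not given. The p-values therefore measure the spread between these libraries, which may be partly technical.

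GABP, the GA-binding protein, is a transcription factor with an ETS-type DNA-binding alpha subunit (Gabpa) and a beta subunit (Gabpb1 or Gabpb2) that carries the activating part. Promoters that it binds include those of many nuclear genes for the respiratory chain, for mitochondrial translation and for cytosolic ribosomes. The proximal tubule and the thick ascending limb, which do most of the kidney's active transport, are rich in mitochondria. In bulk kidney RNA, fewer cells of a type and less RNA per cell cannot be told apart.

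The core of the GABP site was searched for as CCGGAAG, on both strands, in RefSeq promoter windows of 300 bases (250 before to 50 after the gene start, build GRCm38.p6). Of the 9299 tested genes with a window, 1843 held it (19.8%), as did 8.86% of all 32851 windows. The sequences below show it in genes to which the results return, with the motif in capitals and 10 bases on each side, 5′ to 3′ on the strand of the gene, where CTTCCGG is the same motif read from the other strand.
Gabpa, DNA-binding subunit of GABP, chr16:84835021-84835047, plus strand: agggtaagtgCTTCCGGgtccctcagc
Atp5e, ATP synthase epsilon subunit, chr2:174464187-174464213, minus strand: acggccacagCTTCCGGtagccgctcg
Uqcr11, complex III subunit, chr10:80406871-80406897, minus strand: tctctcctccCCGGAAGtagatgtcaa
Polg2, accessory subunit of the mitochondrial DNA polymerase, chr11:106779550-106779576, minus strand: gggtgacgctCTTCCGGgggcgtggtc
Egf, epidermal growth factor, chr3:129725115-129725141, minus strand: taagccgagaCCGGAAGtactgcgaag
The first motif base lies at position -93 in Gabpa, -102 in Atp5e, -66 in Uqcr11, -29 in Polg2 and -45 in Egf, where position 1 is the first transcribed base. A match to these letters is a description of the sequence and does not show that GABP binds there.

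The 6 libraries held 6.78 to 8.58 M fragments (M, 1e6), of which the 13 mitochondrially encoded genes took most. Their share was 75.4%, 86.0% and 75.1% in db/db-veh 1, 2 and 3, and 47.9%, 75.5% and 74.1% in db/db-GABP-KD 1, 2 and 3. Only db/db-GABP-KD 1 lay far below the rest, and with it the means were 65.9% ± 15.5 (SD, n = 3) and 78.8% ± 6.18 (exact permutation p = 0.3, where 3 against 3 libraries allow no two-sided p below 0.1). Since FPKM divides by all fragments, 88.6% of the genes had a deposited level above that of db/db-veh, with a median log2 fold change of 0.45 (0.23 without db/db-GABP-KD 1). Levels below are therefore FPKM divided by a median-of-ratios factor per library, called scaled FPKM, for which the median log2 fold change was 0.00. Deposited values are added for the targeted genes, the called genes and the lists described first. Fold changes are on the log2(scaled FPKM + 0.5) scale, on which the change of a low gene comes out too small.

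db/db-GABP-KD 1 stood apart. Its mean correlation with the other 2 libraries of its group was 0.854, against 0.893 to 0.963 for the other 11 libraries within their own groups. It lay above all the other 11 libraries in 2071 genes and below all of them in 2660. The next highest such counts were 1355 above (db/m-veh 1) and 1529 below (db/db-veh 2). Calls and list medians are therefore given with and without db/db-GABP-KD 1. Nephron markers, which check the labelled tissue, were present in each of the 6 libraries, the lowest scaled FPKM being 116 for the proximal phosphate carrier gene Slc34a1, 5.07 for the uromodulin gene Umod, 9.28 for the distal sodium-chloride carrier gene Slc12a3 and 25.1 for the water channel gene Aqp2.

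Transcripts of the targeted factor were examined first. Gabpa (ENSMUSG00000008976) stood at 2.39, 4.10 and 2.02 scaled FPKM in db/db-veh 1, 2 and 3, and at 3.86, 3.00 and 3.71 in db/db-GABP-KD 1, 2 and 3. The groups overlapped, and no library labelled GABP-KD lay below the lowest 2 vehicle libraries. The ratio of means was 1.24 (3.52 ± 0.458 against 2.83 ± 1.11, SD, n = 3, exact permutation p = 0.4), and limma gave a log2 fold change of 0.31 with a 95% interval of -0.24 to 0.87 (adjusted p = 0.9). As deposited, Gabpa was at 2.20, 2.17 and 1.63 FPKM with vehicle and at 6.62, 2.66 and 3.40 in the libraries labelled GABP-KD, where the latter were all above the former (ratio 2.12, exact permutation p = 0.1). Without db/db-GABP-KD 1 the ratio was 1.18 after scaling (exact permutation p = 0.6) and 1.52 as deposited (p = 0.1). A reduction of Gabpa RNA was thus not seen on either scale, and the samples are called the libraries labelled GABP-KD throughout. Loss of the protein without loss of the transcript was not measured here.

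The beta subunit genes did not separate the groups either. Gabpb1 was at 1.5, 1.17 and 1.81 scaled FPKM with vehicle and at 2.48, 1.15 and 1.24 in the libraries labelled GABP-KD, with the highest value in db/db-GABP-KD 1 and the groups overlapping (ratio of means 1.09, exact permutation p = 0.9). Without that library the ratio was 0.799 (exact permutation p = 0.3), so its direction depended on db/db-GABP-KD 1. Gabpb2 was at 0.733, 0.540 and 0.282 against 0.379, 0.891 and 0.702, again with overlap (exact permutation p = 0.6). Neither gene was called by limma (adjusted p = 0.989 and 0.948).

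Gli1, the Hedgehog transcription factor named in the title of the series, did not reach the minimum level and is no member. Its scaled FPKM was 0.863, 0.0491 and 0.809 with vehicle and 0.0138, 0.0263 and 0.0931 in the libraries labelled GABP-KD, from 53 and 5 fragments in all. One vehicle library, db/db-veh 2, was as low as the libraries labelled GABP-KD, so the groups overlapped (0.574 ± 0.455 against 0.0444 ± 0.0427, exact permutation p = 0.2, 0.3 without db/db-GABP-KD 1). Of 15 Hedgehog pathway genes listed, 8 were tested, with 4 above and 4 below 0 and a median log2 fold change of -0.03 against 0.00 for all genes (0.14 without db/db-GABP-KD 1). The receptor genes Ptch1 and Smo were at 0.671 and 2.17 with vehicle and at 0.537 and 3.06 in the libraries labelled GABP-KD on average, and neither was called. Gas1, a Hedgehog coreceptor gene, was the 1 member without overlap, at 2.21, 3.32 and 3.39 against 6.05, 4.52 and 4.56 (limma adjusted p = 0.69). Of all genes, 4.79% lay higher without overlap.

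**Figure D1:**
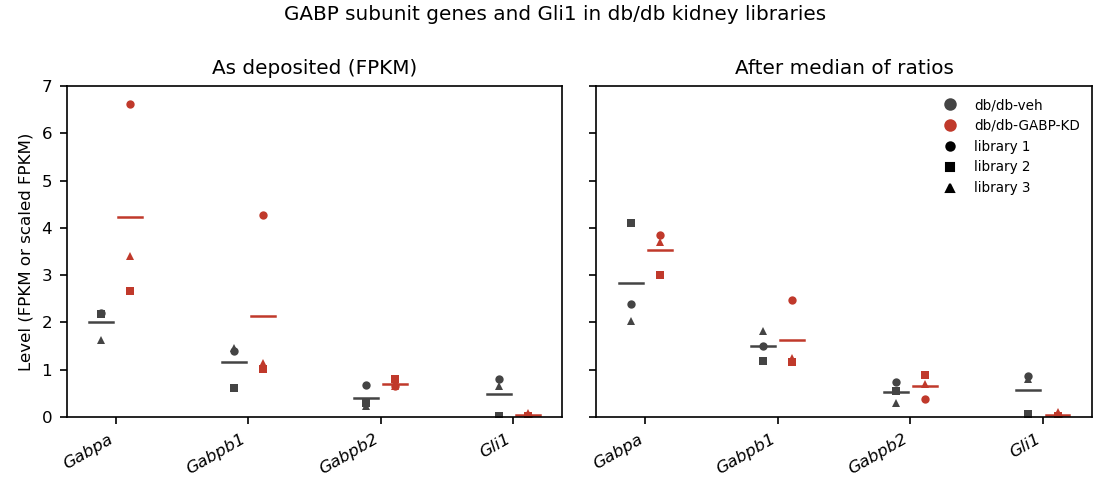
Levels of the GABP subunit genes and Gli1 in the 6 db/db libraries, as deposited FPKM (left) and after median of ratios scaling (right), with a point per library (marker shape gives the library number) and a bar for the group mean. Gabpa is at 3.00 to 3.86 scaled FPKM in the libraries labelled GABP-KD, within the vehicle range of 2.02 to 4.10.

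In all, 5 kidney transcripts fell in the libraries labelled GABP-KD and none rose, at a limma adjusted p under 0.05 over all 11747 genes. The 5 lower genes are 0.0426% of those tested and the 0 higher genes are 0%, while an unadjusted p under 0.05 was reached by 338 genes above (2.88%) and 428 below (3.64%). The called genes are Slc12a1, Slc22a30, Kcnt1, Mpped1 and Gm6614, the last of which falls outside the naming rule as a predicted gene and is named after its values were seen. Mpped1 is among the 11 members that passed the minimum in the 3 vehicle libraries and in no library labelled GABP-KD. The filter thus favoured a fall for this gene. For each of the 5, the 3 libraries labelled GABP-KD lay below the 3 vehicle libraries. Such a lack of overlap held for 670 genes in the lower direction (5.7%) and 563 in the higher direction (4.79%).

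Slc12a1 (ENSMUSG00000027202, GRCm38 chromosome 2, 125152505 to 125230002, plus strand) encodes NKCC2, the sodium-potassium-chloride carrier of the thick ascending limb and the target of loop diuretics. Its level was 96.6, 52.2 and 60.5 scaled FPKM in db/db-veh 1, 2 and 3, and 11.1, 11.1 and 19.6 in db/db-GABP-KD 1, 2 and 3. The highest library labelled GABP-KD was well below the lowest vehicle library, and the db/m-veh libraries (52.6, 74.4 and 43.2) lay near the latter. The mean was 5.02-fold lower (13.9 ± 4.91 against 69.8 ± 23.6, SD, n = 3), with a log2 fold change of -2.29 and an SE of 0.33 (limma adjusted p = 0.0232). Without db/db-GABP-KD 1 the log2 fold change was -2.16 (adjusted p = 0.054), and as deposited it was -1.69 (adjusted p = 0.31).

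Slc22a30 (ENSMUSG00000052562, chromosome 19, 8335371 to 8405111, minus strand) belongs to the organic anion carrier family, whose kidney members sit mostly in the proximal tubule. It stood at 15.5, 12 and 7.73 scaled FPKM with vehicle, at 0.676, 0.857 and 1.2 in the libraries labelled GABP-KD, and at 52.3, 18.9 and 17.8 in db/m-veh. The libraries labelled GABP-KD were thus the lowest of the 9. The mean was 12.9-fold lower, with a log2 fold change of -3.08 (SE 0.39, limma adjusted p = 0.00919), -2.94 without db/db-GABP-KD 1 (adjusted p = 0.025) and -2.56 as deposited (adjusted p = 0.12). Slc22a30 has close relatives in the same gene cluster, and the way the authors' counting treated fragments shared with them is not given, so its level is uncertain to that extent.

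Kcnt1 (ENSMUSG00000058740, chromosome 2, 25863734 to 25918273, plus strand) encodes a sodium-activated potassium channel. Values were 4.86, 4.32 and 2.23 scaled FPKM with vehicle and 0.145, 0.221 and 0.571 in the libraries labelled GABP-KD. In db/m-veh it was at 1.15, 0.412 and 0.364, between the 2 db/db groups in 1 library and within the range of the libraries labelled GABP-KD in the other 2. The mean fell 12.2-fold (limma adjusted p = 0.0169, log2 fold change -2.38 with an SE of 0.33), which was -2.20 without db/db-GABP-KD 1 (adjusted p = 0.037) and -1.97 as deposited (adjusted p = 0.12).

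Mpped1 (ENSMUSG00000041708, chromosome 15, 83779467 to 83858494, plus strand), a metallophosphoesterase domain gene, went from 1.86, 1.37 and 1.2 scaled FPKM to 0.0321, 0.0611 and 0.0361, that is from 106 fragments in all to 5. All libraries labelled GABP-KD were near 0 (log2 fold change -1.85, SE 0.29, limma adjusted p = 0.0378, 0.069 without db/db-GABP-KD 1 and 0.17 as deposited). Mpped1 is a member through its vehicle libraries alone, and with a minimum FPKM of 1 it was not among the genes called. Gm6614 (ENSMUSG00000079263, chromosome 6, 141971845 to 142011414, minus strand) was at 39.7, 27.7 and 15.2 with vehicle, at 3.21, 4.5 and 2.66 in the libraries labelled GABP-KD and at 2.78, 3.12 and 2.14 in db/m-veh. The libraries labelled GABP-KD thus lay near the lean controls (log2 fold change against db/db-veh -2.75, SE 0.34, limma adjusted p = 0.00919, 0.023 without db/db-GABP-KD 1 and 0.16 as deposited).

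Single libraries bore on these calls. Without db/db-veh 1 none of the 5 genes was called (525 genes at an unadjusted p under 0.05), and without db/db-GABP-KD 2 only Gm6614 was. On the deposited scale, where the all-gene shift is left in, 0 genes were called and 1773 had an unadjusted p under 0.05 (1711 of them above), against 766 after scaling. A fit of the 6 libraries alone also called 0 (569 at an unadjusted p under 0.05), while voom on recovered fragments called 5, of which 4 were among the 5 named.

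**Figure D2:**
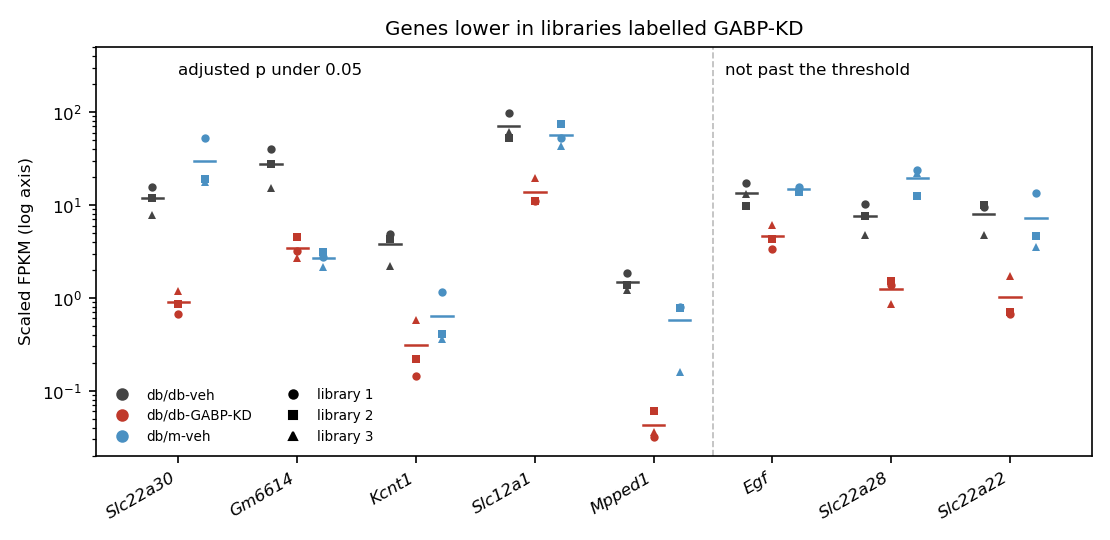
Scaled FPKM on a log axis for the 5 called genes and 3 that lay lower without passing the threshold, in db/db-veh, db/db-GABP-KD and db/m-veh (a point per library, bar for the group mean). Slc12a1 sits at 52.2 to 96.6 with vehicle and at 11.1 to 19.6 in the libraries labelled GABP-KD.

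Leaving out db/db-GABP-KD 1 changed which genes passed. Then 3 genes were called higher (0.0255%) and 5 lower (0.0426%), of which Slc22a30, Kcnt1 and Gm6614 are shared with the fit of all libraries. Polg2, whose product steadies the mitochondrial DNA polymerase on its template, was at 1.06, 1.58 and 1.04 scaled FPKM with vehicle and at 0.554, 0.0904 and 0.0712 in the libraries labelled GABP-KD. Every library of the latter lay below the vehicle libraries (log2 fold change -1.27, limma adjusted p = 0.176, and -1.52 with adjusted p = 0.03 without db/db-GABP-KD 1). Ciart, a repressor of the circadian clock, was at 8.61, 2.93 and 8.22 against 3.66, 0.116 and 0, where db/db-GABP-KD 1 overlapped the vehicle libraries (adjusted p = 0.248, and 0.0041 without it).

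The genes called higher without db/db-GABP-KD 1 were 2200002D01Rik, Tmsb10 and Ugt1a2. Tmsb10, a small actin-binding protein gene, stood at 22.3, 18.9 and 20.1 scaled FPKM with vehicle and at 20.2, 99.3 and 68.3 in the libraries labelled GABP-KD, so db/db-GABP-KD 1 alone was at the vehicle level (adjusted p = 0.517 with it and 0.025 without). The glucuronosyltransferase gene Ugt1a2, which shares exons with other Ugt1a genes and is uncertain for that reason, had the same pattern, at 9.03, 17.7 and 11.5 against 5.74, 45.0 and 56.3 (adjusted p = 0.845 and 0.023). For 2200002D01Rik, which falls outside the naming rule, all libraries labelled GABP-KD were higher, at 3.44, 4.36 and 4.76 against 1.43, 0.942 and 1.24 (adjusted p = 0.0564 and 0.037).

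Markers of the thick ascending limb, the segment that makes Slc12a1 and uromodulin, lay low as a list. Of 11 tested, 10 had a log2 fold change below 0 and 3 had no overlap in the lower direction (5.7% of all genes). The median was -0.61 against 0.00 for all genes (-0.52 without db/db-GABP-KD 1, and -0.49 relative to all genes as deposited). Slc12a1 was the only member called. Egf, made in the thick ascending limb and distal tubule, was at 17.3, 9.71 and 13.2 scaled FPKM with vehicle and at 3.36, 4.29 and 6.11 in the libraries labelled GABP-KD. Its groups did not overlap, but the log2 fold change of -1.45 (SE 0.28) did not pass (limma adjusted p = 0.119). The tight junction gene Cldn19 was at 2.32, 1.78 and 0.948 against 0.146, 0.400 and 0.618, also with no overlap (adjusted p = 0.5).

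Other members of the segment were less separate. The potassium channel gene Kcnj1, which recycles potassium for NKCC2, was at 11.6, 8.91 and 7.62 against 2.67, 4.02 and 9.82, so db/db-GABP-KD 3 lay among the vehicle libraries. Umod was at 17.8, 12.2 and 6.73 against 5.07, 5.32 and 14.1, with the same library high. The median of the list per library, relative to the vehicle mean, was -1.32, -1.03 and -0.11 in db/db-GABP-KD 1, 2 and 3 and 0.33, -0.10 and -0.26 with vehicle, so db/db-GABP-KD 3 overlapped the vehicle libraries. Summed over the list, levels were 196, 132 and 140 scaled FPKM with vehicle and 51.5, 62.9 and 99.5 in the libraries labelled GABP-KD, of which Slc12a1 gave the largest share in the vehicle libraries.

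Proximal tubule markers lay low too, with 18 of 21 below 0 and 7 with no overlap in that direction (5.7% of all genes). Their median log2 fold change was -0.58 (-0.37 without db/db-GABP-KD 1). As deposited the median was 0.02 with 12 of 21 above 0, where that of all genes was 0.45, so the median of the list was below that of all genes but not below 0. None was called, and 4 had an unadjusted p under 0.05. Kap, an androgen-regulated proximal tubule transcript, was at 921, 659 and 1039 scaled FPKM with vehicle and at 204, 133 and 211 in the libraries labelled GABP-KD, against 15301, 3366 and 6220 in db/m-veh. The vehicle db/db libraries were thus already far below the lean ones, and those labelled GABP-KD lower still (limma adjusted p = 0.23, log2 fold change -2.26 with an SE of 0.53). The fatty acid carrier and acyl-CoA synthetase gene Slc27a2 was at 390, 279 and 287 against 173, 152 and 170, and the creatine synthesis gene Gatm at 52.6, 73.9 and 49.0 against 11, 45.3 and 40.0. Slc7a13, an amino acid carrier gene of the late proximal tubule, was at 15.9, 16.6 and 11.8 against 1.09, 1.84 and 7.61.

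Carriers and conjugating enzymes of the same segment gave several of the genes nearest to the threshold. Slc22a28, a relative of Slc22a30, was at 10.2, 7.59 and 4.76 scaled FPKM with vehicle and at 1.38, 1.51 and 0.851 in the libraries labelled GABP-KD (limma adjusted p = 0.0896). Slc22a22, which encodes a prostaglandin carrier, was at 9.42, 9.86 and 4.70 against 0.678, 0.699 and 1.72 (adjusted p = 0.0896). Neither gene's groups overlapped. Of 20 cytochrome P450 and conjugation genes, 11 lay below 0, with a median of -0.25 (-0.21 without db/db-GABP-KD 1), and 4 had no overlap in that direction (5.7% of all genes). Those 4 were the glucuronosyltransferase genes Ugt2b37 (16.8, 15.2 and 31.8 against 2.95, 7.69 and 3.85, adjusted p = 0.118) and Ugt2b38, and the P450 genes Cyp2a4 and Cyp2j13. Each belongs to a cluster of near-identical genes, so their values are uncertain.

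The medians of distal convoluted tubule and intercalated cell markers depended on db/db-GABP-KD 1. Distal convoluted tubule markers had a median log2 fold change of -0.50 (8 of 11 below 0), which was -0.10 without that library. As deposited it was 0.05, which is -0.40 relative to all genes. Slc12a3, the carrier that thiazides block, was at 35.6, 30.2 and 28.2 scaled FPKM with vehicle and at 9.28, 23.0 and 25.0 in the libraries labelled GABP-KD, with the lowest value in db/db-GABP-KD 1. The kinase gene Wnk4, a regulator of that carrier, was at 54.1, 31.7 and 50.6 against 14.7, 23.4 and 30.1 (limma adjusted p = 0.68). The median of intercalated cell markers was -0.06, and 0.22 without db/db-GABP-KD 1, and that of collecting duct principal cell markers was -0.20 and -0.17. Podocyte markers lay the other way, with 8 of 11 above 0 and a median of 0.26 with and without that library. The Wilms tumour factor gene Wt1 was at 0.644, 0.396 and 0.809 against 1.69, 1.46 and 1.10, with no overlap (adjusted p = 0.53).

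**Figure D3:**
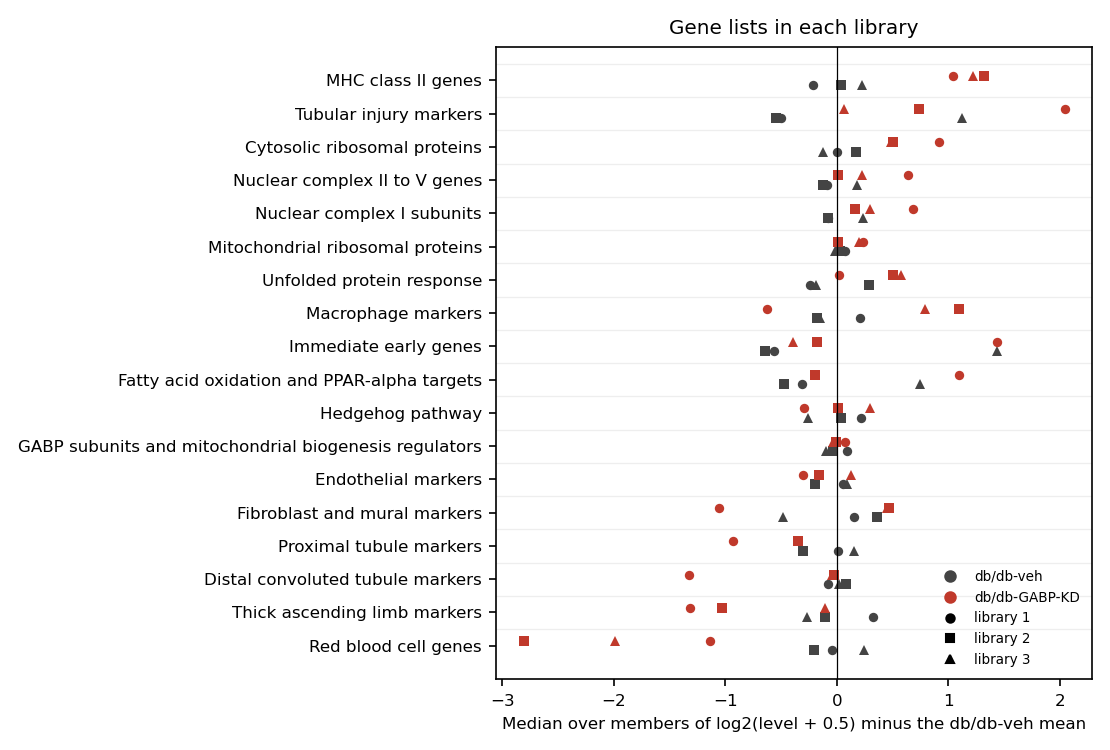
Median over the tested members of 18 gene lists of the log2 level relative to the db/db-veh mean, in each of the 6 libraries (marker shape gives the library number). Thick ascending limb markers are at -1.32 and -1.03 in db/db-GABP-KD 1 and 2 and at -0.11 in db/db-GABP-KD 3, and MHC class II genes are at 1.04 to 1.32 in all libraries labelled GABP-KD.

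Most nuclear genes for the respiratory chain, the best known targets of GABP, had levels above those of db/db-veh. Of 36 complex I subunit genes tested, 29 lay above 0 (50.5% of all genes did), 8 had no overlap in the higher direction and 2 in the lower (4.79% and 5.7% of all genes), and the median log2 fold change was 0.34 against 0.00 for all genes (0.22 without db/db-GABP-KD 1). Among 38 genes of complexes II to V, 30 lay above 0 and 6 had no overlap, all of them higher, with a median of 0.46 that was 0.13 without db/db-GABP-KD 1. As deposited the medians were 0.94 and 1.03, against 0.45 for all genes, with all 36 and all 38 above 0. No member of either list was called. Per library, complexes II to V had medians of -0.09, -0.12 and 0.18 with vehicle and of 0.64, 0.01 and 0.22 in db/db-GABP-KD 1, 2 and 3, so the libraries overlapped.

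Single subunits stood further apart than their lists. Ndufb9, an accessory subunit of complex I, was at 4.80, 4.05 and 4.08 scaled FPKM with vehicle and at 12.1, 9.93 and 11 in the libraries labelled GABP-KD (limma adjusted p = 0.176, log2 fold change 1.26 with an SE of 0.25). Atp5e, whose promoter holds the motif printed above, was at 15.1, 14.8 and 14.3 against 31.6, 31.4 and 37.8 (log2 fold change 1.16, SE 0.25, adjusted p = 0.198). Uqcr11, with the motif as well, was at 23.2, 13.0 and 52.7 against 88.0, 57.5 and 64.4 (adjusted p = 0.41). In each of the 3 genes every library labelled GABP-KD lay above the vehicle libraries, by the smallest margin for Uqcr11. Ndufa2, another complex I accessory subunit, was at 18.7, 13.7 and 24.0 against 90.3, 46.1 and 49.3 (adjusted p = 0.178), and the import channel gene Tomm7 at 3.41, 0.655 and 2.30 against 8.83, 8.40 and 6.20 (adjusted p = 0.232).

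The list of GABP subunits and other regulators of mitochondrial biogenesis was centred on 0, with 8 of 16 above and 8 below and a median of 0.00 (-0.03 without db/db-GABP-KD 1). Polrmt, the mitochondrial RNA polymerase, was at 8.83, 7.07 and 9.08 scaled FPKM with vehicle and at 4.28, 6.44 and 5.20 in the libraries labelled GABP-KD, with no overlap (limma adjusted p = 0.76). Ppargc1a, a coactivator that drives mitochondrial gene expression, was at 3.49, 2.98 and 2.92 against 1.88, 2.61 and 2.78, again lower in every library (adjusted p = 0.89). Mitochondrial ribosomal protein genes had a median of 0.16 with and without db/db-GABP-KD 1, with 35 of 48 above 0.

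Cytosolic ribosomal protein genes lay on 1 side of 0. All 51 tested had a log2 fold change above 0, from 0.25 to 1.36 (median 0.66, 0.49 without db/db-GABP-KD 1, and 0.78 relative to all genes as deposited). In 30 of them the groups did not overlap, against 4.79% of all genes in that direction, and none was called. Rps24, of the small subunit, was at 10.4, 9.93 and 9.97 scaled FPKM with vehicle and at 24.7, 18.9 and 18.7 in the libraries labelled GABP-KD (limma adjusted p = 0.46, log2 fold change 1.00 with an SE of 0.30). Rps29 was at 14.5, 15.6 and 9.10 against 34.4, 26.1 and 36.5 (adjusted p = 0.248). In both genes each library labelled GABP-KD lay above the vehicle libraries, which were close together for Rps24 and more spread for Rps29. Ribosomal protein genes have many processed copies in the genome, so their levels depend on how the authors' counting treated shared fragments.

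Gene length was set beside this list. When the genes were split by exon length into 5 equal bins, the shortest (237 to 2421 bases) had a median log2 fold change of 0.11, against -0.03 for the longest, and 8.99% against 2.47% of their genes had no overlap in the higher direction. The 31 ribosomal protein genes in the shortest bin had a median of 0.67, against 0.09 for the 2110 genes of that bin that were in no list. Transcripts known to stay in the nucleus, which can mark RNA quality, were low in 1 library: the 2 tested summed to 135, 148 and 67.0 scaled FPKM with vehicle and to 78.1, 6.30 and 202 in db/db-GABP-KD 1, 2 and 3. The part of gene length or RNA quality in the level of ribosomal protein genes was not tested.

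**Figure D4:**
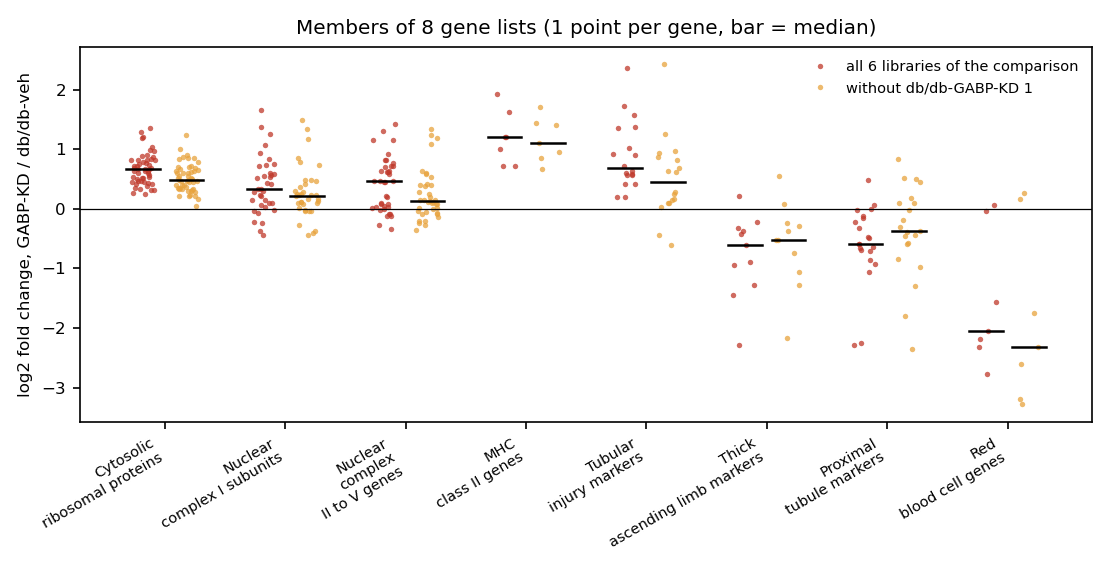
Log2 fold changes of the tested members of 8 gene lists (a point per gene, bar for the median), from all libraries and without db/db-GABP-KD 1. All 51 cytosolic ribosomal protein genes lie above 0, with medians of 0.66 and 0.49.

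Genes of antigen presentation lay higher in each library labelled GABP-KD. Cd74, the invariant chain that escorts MHC class II molecules, was at 13.8, 16.5 and 18.3 scaled FPKM with vehicle and at 82.7, 56.3 and 52.1 in the libraries labelled GABP-KD. The groups were far apart, with a 3.93-fold higher mean and a log2 fold change of 1.92 (SE 0.34), which did not pass (limma adjusted p = 0.0896) and was called in 4 of 21 alternatives. Psmb8, an immunoproteasome subunit, was at 0.661, 0.363 and 0.478 against 2.22, 2.52 and 1.51 (log2 fold change 1.36, SE 0.23, adjusted p = 0.0736). H2-Aa and H2-Ab1, the chains of the class II molecule I-A, were at 3.53, 2.52 and 3.92 against 9.37, 9.29 and 6.33, and at 4.66, 4.97 and 14 against 28.6, 23.0 and 16.8.

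Over the list, all 7 class II genes tested were above 0 and 6 had no overlap in that direction (4.79% of all genes). Both counts include H2-DMb1, at 0.0950, 0.146 and 0.0962 with vehicle and 0.287, 0.625 and 0.646 in the libraries labelled GABP-KD. It is among the 60 members that passed the minimum in the libraries labelled GABP-KD and in no vehicle library, so the filter favoured its rise. The median of the list was 1.2 (1.1 without db/db-GABP-KD 1, 1.27 relative to all genes as deposited). Summed, the class II genes were at 26.6, 29.7 and 43.3 with vehicle, at 131, 103 and 92.3 in the libraries labelled GABP-KD and at 84.0, 59.9 and 50.5 in db/m-veh. Summed macrophage markers did not follow them in db/db-GABP-KD 1. Their sum was 34.7 to 39.2 with vehicle, 36.3 in db/db-GABP-KD 1, and 97.6 and 108 in db/db-GABP-KD 2 and 3. The complement gene C1qa was at 3.68, 2.12 and 2.18 against 0.464, 13.5 and 13.9, and the lysozyme gene Lyz2 at 9.58, 13.2 and 3.81 against 1.05, 35.0 and 57.2. Members differed, since Cd68 (1.52, 0.586 and 4.63 against 6.58, 4.70 and 3.70) and Cd14 (1.11, 2.55 and 8.49 against 17.7, 5.23 and 3.40) were highest in db/db-GABP-KD 1. Csf1r was the only member below 0, at 6.11, 4.12 and 1.48 against 0.657, 1.86 and 2.71. Of 12 macrophage markers 11 lay above 0 and none was called or free of overlap. Their median was 0.31, and 0.84 when db/db-GABP-KD 1 was left out.

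Interferon-stimulated genes had a median of 0.21 (0.56 without db/db-GABP-KD 1), with 15 of 16 above 0. The guanylate-binding protein gene Gbp2 was at 0.952, 1.56 and 0.129 scaled FPKM with vehicle and at 1.84, 2.87 and 2.59 in the libraries labelled GABP-KD (limma adjusted p = 0.48). The antiviral gene Rsad2 was free of overlap in the other direction, at 2.47, 2.38 and 2.31 against 1.16, 1.27 and 2.07, and was not called. The chemokine gene Ccl5 was at 0.333, 0 and 0.842 against 1.44, 4.24 and 0.969, and the adhesion molecule gene Icam1 at 2.49, 3.55 and 2.08 against 4.73, 6.56 and 4.91. Ccl5 and Icam1 had no overlap either, and neither was called. Both belong to the list of neutrophil and inflammatory genes, of which 10 of 13 lay above 0 (median 0.58, 0.30 without db/db-GABP-KD 1). Of 23 lymphocyte and plasma cell markers only 2 were tested, so those cells were hardly measured.

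Tubular injury markers all lay above 0, but along with 1 vehicle library. Havcr1, which encodes the kidney injury molecule KIM-1, was at 0.138, 0 and 1.96 scaled FPKM with vehicle and at 3.52, 9.20 and 2.21 in the libraries labelled GABP-KD, so the highest vehicle library, db/db-veh 3, came close to the lowest of them (limma adjusted p = 0.221, log2 fold change 2.36 with an SE of 0.55). Lcn2, which encodes the injury marker NGAL, was at 0, 1.03 and 18.4 against 22.0, 9.06 and 1.89, and the osteopontin gene Spp1 at 75.6, 122 and 829 against 1967, 466 and 220. In both, db/db-GABP-KD 1 and db/db-veh 3 were the highest of the 6. The list had 18 of 18 genes above 0 with a median of 0.68 (0.45 without db/db-GABP-KD 1, then 16 of 18). Only 1 of them, Havcr1, had no overlap, where 4.79% of all genes had none in that direction.

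The same 2 libraries led the immediate early genes and the genes of fatty acid oxidation. Immediate early genes had library medians of -0.57, -0.65 and 1.44 with vehicle and of 1.44, -0.17 and -0.39 in the libraries labelled GABP-KD. Junb was at 6.04, 6.08 and 31.9 scaled FPKM against 72.5, 14.7 and 7.48. The medians of fatty acid oxidation and PPAR-alpha target genes were -0.31, -0.47 and 0.74 with vehicle and 1.09, -0.20 and -0.19 in the libraries labelled GABP-KD. These 2 lists therefore changed sign without db/db-GABP-KD 1, from 0.19 to -0.24 and from 0.15 to -0.22. Deviations from the group mean correlated at 0.52 across genes between db/db-veh 3 and db/db-GABP-KD 1, and genes are not independent replicates.

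Single genes show how far db/db-GABP-KD 1 was removed. Pdk4, a kinase that holds back glucose oxidation, was at 259 scaled FPKM there, against 2.73 and 2.25 in the other libraries labelled GABP-KD and 2.36, 2.52 and 27.2 with vehicle. The lipid droplet gene Plin2 was at 275, against 5.87 and 4.99 and against 3.68, 5.17 and 30.5. The tight junction gene Cldn4 was at 64.5, against 2.10 and 2.99 and against 1.41, 1.35 and 7.92. In each of the 3 genes db/db-veh 3 was the next highest of the 12 libraries. At the low end, C1qb was at 0.507 with the lowest of the other 11 libraries at 4.29, the creatine synthesis gene Gamt at 0.764 with 3.87, and Pter, a proximal tubule gene, at 4.77 with 17.7.

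**Figure D5:**
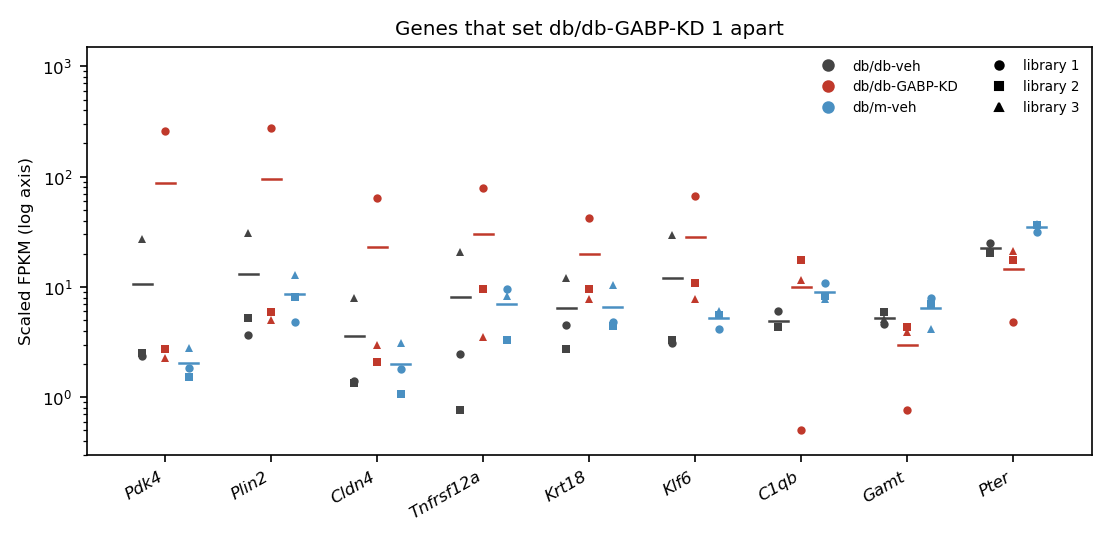
Scaled FPKM on a log axis of 9 genes that set db/db-GABP-KD 1 (red circle) apart, in db/db-veh, db/db-GABP-KD and db/m-veh (a point per library, bar for the group mean). Pdk4 is at 259 in db/db-GABP-KD 1 and at 27.2 or below in the other libraries.

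Red blood cell genes were low in every library labelled GABP-KD. The alpha globin gene Hba-a1 was at 203, 133 and 211 scaled FPKM with vehicle and at 67.9, 25.0 and 34.2 in the libraries labelled GABP-KD (limma adjusted p = 0.198, log2 fold change -2.19 with an SE of 0.47). The beta globin gene Hbb-bt was at 22.3, 18.5 and 35.2 against 7.06, 1.31 and 3.09. Alas2, the heme synthesis enzyme of red cell precursors, was at 1.40, 1.23 and 1.88 against 0.402, 0.164 and 0. Summed over the list, levels were 355, 258 and 415 with vehicle and 158, 40.9 and 61.2 in the libraries labelled GABP-KD. In the lower direction 5 of 7 genes had no overlap, against 5.7% of all genes (median -2.05, -2.31 without db/db-GABP-KD 1). The globin genes come in near-identical copies, and the blood left in the tissue was not measured otherwise. Adipocyte genes had a median of -0.53 (-0.95 without db/db-GABP-KD 1), with 6 of 6 below 0 and no gene free of overlap. Urothelial and liver markers had medians of -0.48 and -0.53 (-0.26 and -0.55 without db/db-GABP-KD 1), with 4 of 5 and 5 of 7 below 0, and none was called. Of 10 adrenal genes 8 were at 0 in all 6 libraries.

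The unfolded protein response had 19 of 20 genes above 0 with a median of 0.40 (0.52 without db/db-GABP-KD 1). The chaperone gene Hspa5 was at 21.1, 57.8 and 17.7 scaled FPKM with vehicle and at 29.7, 59.2 and 65.6 in the libraries labelled GABP-KD, so that db/db-veh 2 overlapped. Ddit3, a factor induced by that response, was at 5.41, 6.02 and 3.49 against 6.16, 9.73 and 8.60, with no overlap (limma adjusted p = 0.79). Clock genes were split, with 10 of 18 above 0 and a median of 0.21, which turned to -0.24 with 8 above 0 without db/db-GABP-KD 1. From all libraries, 3 had no overlap in the lower direction and 1 in the higher (5.7% and 4.79% of all genes). The clock output factors Tef (24.2, 22.6 and 13.2 against 7.47, 8.59 and 9.25) and Dbp (11.1, 7.71 and 4.59 against 3.52, 2.72 and 2.38) lay lower in every library labelled GABP-KD, and the repressor Cry1 lay higher (1.19, 1.54 and 1.55 against 5.80, 2.12 and 2.41). The adjusted p of these 3 genes was 0.38, 0.62 and 0.52, and the times of sampling are not given.

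Lists with medians nearer 0 were the extracellular matrix and TGF-beta response (median 0.18 with 17 of 25 above 0, and 0.43 with 22 above 0 without db/db-GABP-KD 1) and fibroblast and mural markers (-0.11, and 0.50 without that library). Medians with and without it were -0.14 and -0.06 for endothelial markers, 0.00 and -0.11 for the NFE2L2 antioxidant response, and -0.06 and 0.00 for cholesterol and fatty acid synthesis. They were 0.02 and -0.03 for glucose transport and gluconeogenesis, -0.03 and 0.13 for androgen-responsive genes, and 0.02 and -0.04 for cell cycle genes. The injury-linked matrix inhibitor gene Timp1 was at 0.180, 1.38 and 1.27 scaled FPKM with vehicle and at 1.40, 6.21 and 1.05 in the libraries labelled GABP-KD, with overlap. The glucose carrier gene Slc5a2, the target of gliflozin drugs, was at 27.3, 20.4 and 26.5 against 13.1, 19.0 and 20.9. None of the members of these lists was called.

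The GABP motif was set beside the direction of the genes. It stood in the promoter windows of 37 of 343 genes that lay lower at an unadjusted p under 0.05 (10.8%) and of 52 of 264 that lay higher (19.7%), against 19.8% of all genes tested. By lack of overlap the shares were 13.9% of 532 lower genes and 26.4% of 432 higher ones. Of the 5 called genes 4 had a window and 0 held the motif. Complex II to V genes held it in 12 of 30 (40.0%), mitochondrial ribosomal protein genes in 17 of 43, cytosolic ribosomal protein genes in 15 of 38, and complex I genes in 4 of 32. Proximal tubule markers held it in 0 of 18 and thick ascending limb markers in 1 of 9, which is Egf. These shares are descriptions of 300-base windows, and genes without the letters may be bound elsewhere.

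The effect in db/db kidney was also set against that in db/m kidney in which GABP was to be raised, which uses 6 other libraries. Levels of the GABP subunit genes in the GABP-OE libraries are not given here. The difference of the 2 effects was called for 5 of 11747 genes (0.0426%). Kcnt1 and Mpped1 had differences of -3.46 and -2.67 (limma adjusted p = 0.0239 and 0.0387). Both fell in the libraries labelled GABP-KD, and in db/m kidney they were at 2.40, 1.59 and 1.54 scaled FPKM with GABP-OE against 1.15, 0.412 and 0.364 (Kcnt1) and at 1.86, 1.40 and 0.876 against 0.806, 0.788 and 0.161 (Mpped1). For Mpped1 the filter favoured the fall in db/db kidney, as given above. The other 3, Tpm3-rs7, Gm11361 and Fam25c, had differences of 3.66, 4.01 and 3.59 and were low with GABP-OE rather than called in db/db kidney. Tpm3-rs7 and Gm11361 have near-identical relatives and are uncertain for that reason. When single db/db libraries were left out (the db/m libraries were not), the count was 0 without db/db-veh 1, db/db-veh 2 or db/db-GABP-KD 2, it was 1 with db/db-veh 3 left out, and it was 3 with db/db-GABP-KD 3 left out. For Slc22a30 and Slc12a1 the difference was -3.38 and -2.83 (adjusted p = 0.051 and 0.056). Slc12a1 was at 90.7, 82.7 and 69.6 with GABP-OE.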

How the data were processed

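The authors deposited 1 table of FPKM for 12 kidney libraries. Per the submitters' processing notes, HTSeq and GRCm39 were used. Aligner, annotation, strand setting and tool versions: not given in the sources used here, so fragments of overlapping antisense genes cannot be told apart. Exon lengths of GENCODE M21 (GRCm38) turned 98.0% to 98.2% of the values above 0 in each library into whole fragments (tolerance 0.05), so coordinates are given in GRCm38. Duplicate PCR fragments were not identifiable. Libraries of a group differed by 6.88 to 56.7 times counting noise (chi-square divided by its degrees of freedom), so none was a repeat deposit.

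Size factors were medians of ratios over the nuclear genes above FPKM 1 in every library (0.529 to 1.72 in the 6 libraries). The test was limma 3.58.1 (R 4.3.3) on log2(scaled FPKM + 0.5), with all 12 libraries, 1 mean per group, a variance trend and two-sided tests, calling genes at a p under 0.05 after Benjamini-Hochberg adjustment over 11747 genes. Exact permutation tests compared single values. The fit was also run on simulated fragments with planted changes and the same dispersion for every gene and library. This checks the code and not the calls made here. Members and 38 gene lists (735 entries, 606 distinct genes tested) were chosen with earlier results of these data known, so list counts are descriptions. Named are the GABP subunits and Gli1, called genes whose higher group averaged 1 or more and did not overlap the other (leaving out predicted, pseudogene and sex-linked genes), with and without db/db-GABP-KD 1, genes of smallest p up to 10 per direction, up to 4 per list by smallest p, and 10 each way that set db/db-GABP-KD 1 apart. Other list members are named after their values were seen. Alternatives were other scalings, pseudocounts and filters, no trend, library weights, a replicate block, the 6 libraries alone, voom and leaving out each of the 6 db/db libraries. Other steps used matplotlib 3.10.9, scipy 1.17.1, numpy 2.4.6, pandas 2.3.3 and Python 3.11.15. One gene is not reported here.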

Additional observations from a re-analysis of the deposited data

How the results depend on the processing

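The count of 5 genes called for GABP-KD became 0 as deposited, 0 with no filter (1060 at an unadjusted p under 0.05), 0 with the 6 libraries alone, 11 with quantile normalization, 446 with library weights, whose estimation did not converge, and 3 as deposited without db/db-GABP-KD 1. Leaving out 1 of the 6 db/db libraries gave 0 (without db/db-veh 1) to 8 (without db/db-GABP-KD 1). The 5 genes called for the difference of effects became 0 with an equal FPKM sum (568 at an unadjusted p under 0.05), 2 with quantile normalization, 0 with no filter (1104), 10 with the filter over all 12 libraries, 1640 with library weights, and 10 as deposited without db/db-GABP-KD 1. Leaving out 1 of the 6 db/db libraries gave 0 to 6, and the 6 db/m libraries were not left out in turn. The log2 ratio of mean Gabpb1 (0.12) ranged from -0.32 (without db/db-GABP-KD 1) to 0.315 (with db/db-GABP-KD 2 left out) and was -0.03 with db/db-veh 2 left out. Causes were not tested.

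Deviations from the group mean gave no sign that replicate numbers pair the samples (same-numbered deviations correlated at -0.26, 0.24 and -0.46, and 0 of 3 correlated best with their own number). Such correlations from 3 libraries per group cannot show that pairing was absent. With the replicate number as a block 4 genes were called for GABP-KD, without Slc12a1 (limma adjusted p = 0.072), and 4 for the difference of effects. As deposited with the block, 3 genes were called for GABP-KD. Of 3666 alternative values of 176 named genes, 3547 kept their side of the threshold, 42 lost the call, 77 gained it and 0 reversed with a call. Of the 38 list medians, 21 kept their sign throughout, where deposited medians were taken relative to that of all genes. Without that subtraction some changed sign, such as proximal tubule markers (-0.58 after scaling and 0.02 as deposited). With 1.08 to 4.39 M nuclear fragments per library, low genes such as Gli1 (53 and 5 fragments) were hardly measurable.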
